A study of Mus musculus with 2 samples.

Results

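RNA splicing and processing factors were measured in mouse morulae that had been injected with LIF-siRNA or with scrambled siRNA. The members were 65 of the 8735 gene spots on the array, carrying 59 different names. They were chosen by the start of the gene name in the files, with words such as splicing factor, small nuclear ribonucleoprotein, heterogeneous nuclear, RNA binding, DEAD, cleavage, poly(A), ribonuclease, RNA polymerase, CUG, ELAV, staufen and CDC-like kinase, and spots named as ESTs were left out. The rule reads only names, although it was written with earlier results of these data known. The letters DEAD also caught a pair of dead ringer homologs, which are transcription factors and not helicases, so they were kept apart as a group of their own. Gene symbols are given here from the full names, since the files hold names and no symbols.

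LIF, the leukemia inhibitory factor, signals through JAK and STAT3, and the comparison addressed what its loss does to gene expression before implantation. Embryos of both groups were of strain B6CBF1, and per the labels were whole embryos with an age of 4 d. They had been injected into the cytoplasm at the 2PN stage, when both parental pronuclei are visible, with LIF-siRNA, a short RNA that lowers the LIF transcript, or with scrambled siRNA as the control. The labels give 1.0 fmol in 1 pl for both groups, whereas the methods give another dose. Pooled LIF-siRNA embryos gave the Cy5 channel and pooled scrambled-siRNA embryos the Cy3 channel of each of 2 arrays, without a dye swap, so dye and treatment cannot be told apart. A label that describes untreated embryonic stem cells goes against the titles and RNA sources, which were followed. No spot was named for LIF (0 of 8735), so the knockdown itself could not be checked. The sources do not say if each array had a pool of its own, so the spread and the p-values measure only these 2 arrays. In pooled whole embryos, fewer cells of a type and less RNA per cell cannot be told apart.

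Pre-mRNA is spliced by the spliceosome, which is built from small nuclear ribonucleoproteins (snRNPs) on the splice sites. Arginine/serine-rich (SR) proteins usually help the choice of a splice site, many heterogeneous nuclear ribonucleoproteins (hnRNPs) oppose it, and CDC-like kinases phosphorylate the SR proteins. The transcript is then cut and polyadenylated at its 3′ end, exported, and stored, translated or degraded under the control of RNA-binding proteins, which is of weight in the early embryo because maternal RNA is replaced by transcripts of the embryonic genome.

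The splicing and processing factors did not move one way after LIF-siRNA. Of the 64 spots tested, 28 had a higher and 26 a lower signal in LIF-siRNA than in scrambled-siRNA morulae on both arrays, and 10 differed in sign between the arrays. The share with the same sign on both arrays was 84.4%, against 73.5% of all 8079 probes tested. Members were brighter than the average spot. Past a signal of 1000, the signs differed for 8 of 47 members and for 746 of 3527 probes. Among spots past a signal of 1000 the lowest ratios belonged to Sf3a2 and Celf1 and the highest to Hnrnpa2b1. Of the genes with more than 1 spot, Celf1 gave like ratios on its spots, whereas Hnrnpa1 and Hnrnph1 gave ratios of opposite sign. One member, Elavl4, was too dim to be tested, with processed signals of 9.08 and 9.84 with LIF-siRNA and 37.0 and 16.7 with scrambled siRNA on arrays 1 and 2.

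The methods ask for a ratio above 2 or below 0.5 together with a signal above 1000 in either channel, and do not say how arrays are combined. With these thresholds on the geometric mean ratio and the mean signal of both arrays, used here as the criteria, 3 of the 65 members were lower (4.62%), against 2.19% of the 8712 gene spots free of outlier marks, and 0 members were higher, against 2.16%. Among the 47 members past the signal threshold the share of lower spots was 6.38%, against 5.42% of all 3527 such spots, and that of higher spots was 0, against 5.33%. With the signal threshold asked of both channels, the same 3 members were lower (4.62%), against 1.18% of all spots, and 0 higher, against 0.918%. Most of all spots were too dim for that threshold. The 3 were both Celf1 spots and the Sf3a2 spot. Without array 1, Sf3a2 alone was lower by these criteria. A ratio of at least 1.5-fold in the same direction on both arrays was found for 9 members lower (14.1%, against 9.64% of all probes tested) and 4 members higher (6.25%, against 10.1%). With limma, which tested the log2 ratio against 0, 0 of the 64 members and 0 of all 8079 probes (0%) passed 0.05 after Benjamini-Hochberg adjustment, and an unmoderated one-sample test of the same values also gave 0. At an unadjusted limma p under 0.05 there were 13 members higher and 13 lower, 20.3% each, against 15.9% and 14.8% of all probes. Both signals with LIF-siRNA lay above both signals with scrambled siRNA for 24 members (37.5%, against 31.4%) and below them for 25 (39.1%, against 31.2%). The differences between these shares were not tested.

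**Figure D1:**
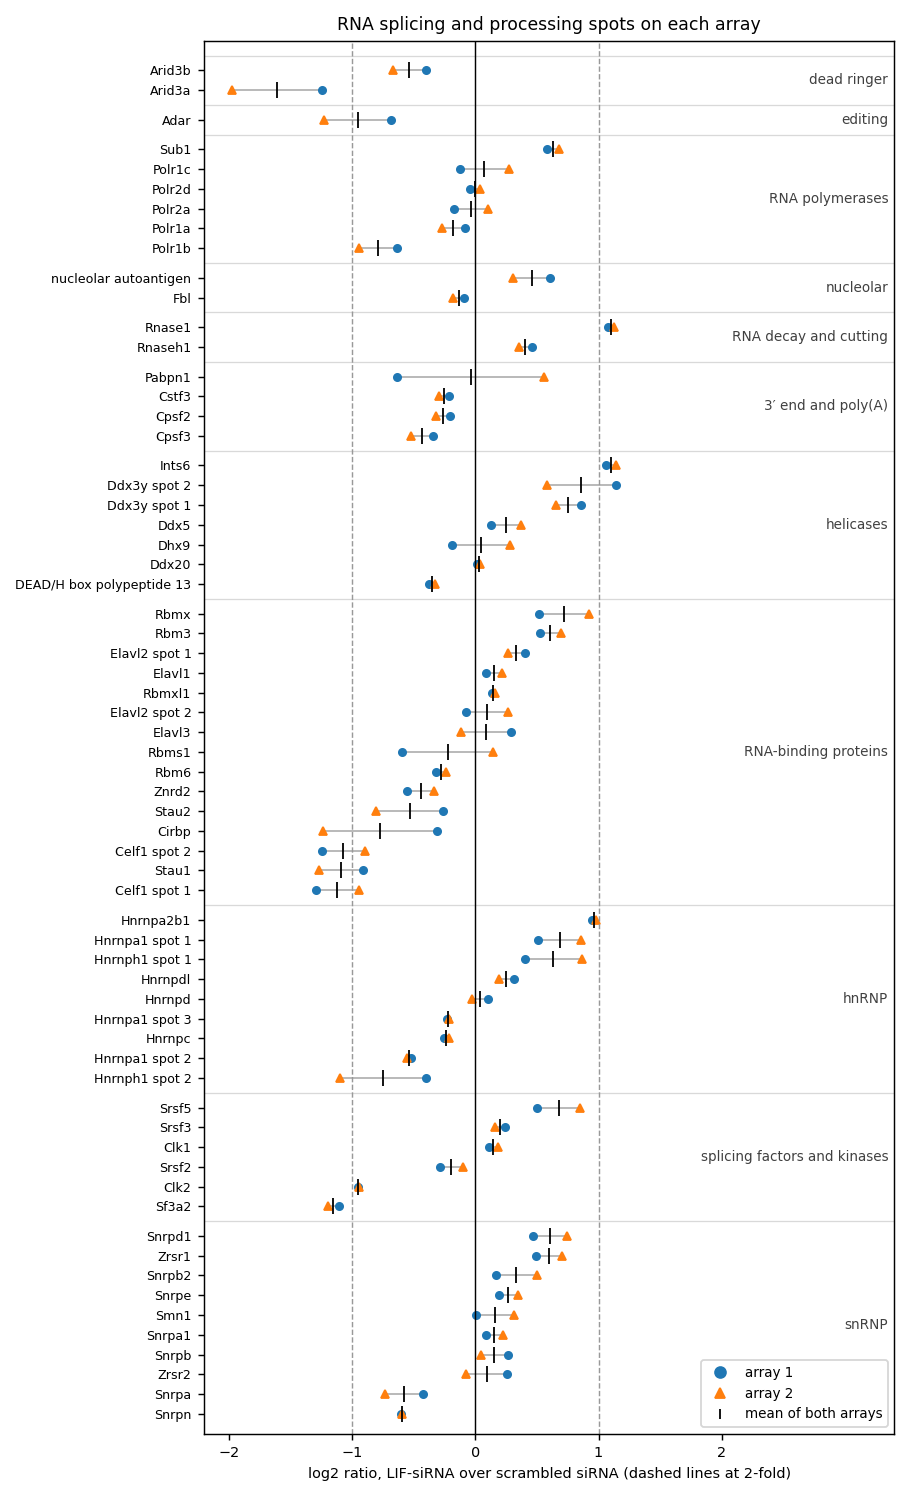
Log2 ratio of LIF-siRNA over scrambled siRNA (x axis) for the 64 member spots tested, grouped by role (y axis); circles are array 1, triangles array 2 and ticks the mean. Most means lie between the dashed 2-fold lines, with Celf1, Sf3a2, Stau1 and Arid3a beyond the lower line and Ints6 and Rnase1 beyond the upper one.

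The ratio of a member repeated closely. The median SD between the arrays was 0.14 on the log2 scale for the members and 0.25 for all probes, and 0.13 against 0.19 among spots past the signal threshold. Pearson's r between the arrays was 0.854 over the 64 members and 0.639 over all probes, and Spearman's rho was 0.859 and 0.632, as a description over genes that share the same RNA and dyes. The members were brighter than the average spot, with a median signal over local background between 20.2 and 27.9 in the 4 channels, against 4.83 to 6.60 for all gene spots. The median log2 ratio was 0.04 for the members and -0.0040 for all probes, and that of the members was below 0 with median centring (-0.0692) and on array 1 alone (-0.0596). The median absolute log2 ratio was 0.38 for the members and 0.39 for all probes, with 0.27 against 0.38 on spots past the signal threshold and 0.72 against 0.40 below it.

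**Figure D2:**
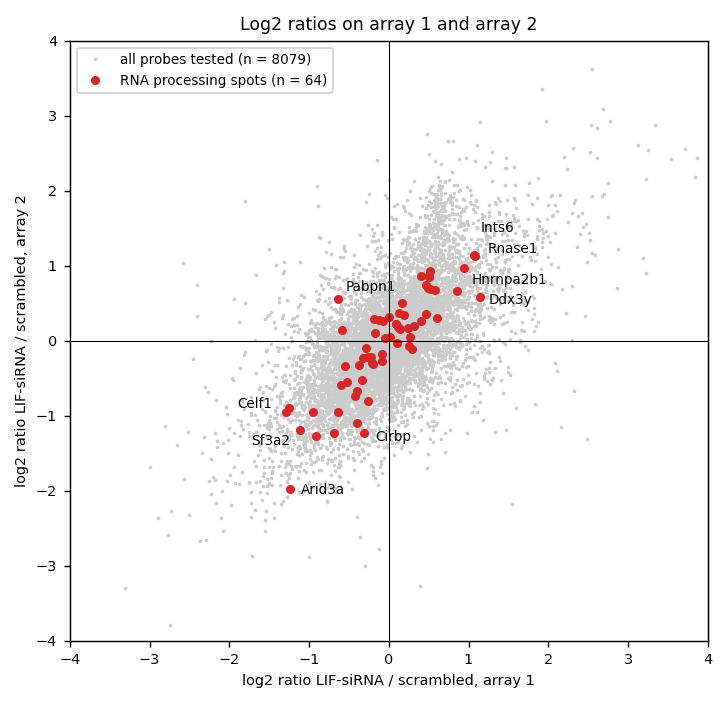
Log2 ratio on array 1 (x axis) against array 2 (y axis), red for the 64 member spots and grey for all 8079 probes tested, of which 1 lies outside the axes. The members lie along the diagonal, with Pabpn1 and Cirbp among those whose arrays differed most.

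Celf1 had the lowest ratio of the RNA-binding proteins past the signal threshold, on both of its spots. Celf1 (CUG triplet repeat, RNA binding protein 1) binds GU-rich RNA, controls alternative splicing and promotes deadenylation and decay of the mRNAs it binds. Its first spot had processed signals of 2102 and 2434 with LIF-siRNA and of 5152 and 4690 with scrambled siRNA on arrays 1 and 2. The second spot had 2434 and 2570 with LIF-siRNA and 5773 and 4784 with scrambled siRNA. Both LIF-siRNA signals lay below both scrambled-siRNA signals on each spot, without overlap. The log2 ratio was -1.12 ± 0.25 (SD, n = 2 arrays) on the first spot and -1.07 ± 0.25 on the second, a geometric mean ratio of 0.46 and 0.476. The adjusted p was 0.0725 and 0.0758 with limma, and 0.0113 and 0.0124 when limma's variance was allowed to follow intensity. On array 2 alone the ratios were -0.95 and -0.90 on the log2 scale, short of 2-fold.

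Sf3a2 (splicing factor 3a, subunit 2), a subunit of the U2 snRNP that helps to hold the branch site, was the other gene past the criteria. Its signals were 1107 and 1138 with LIF-siRNA and 2388 and 2605 with scrambled siRNA. The groups did not overlap, and the LIF-siRNA signal was below the scrambled-siRNA signal on both arrays. The log2 ratio was -1.15 ± 0.06 (SD, n = 2), a ratio of 0.45, with a limma adjusted p of 0.0656 that became 0.0144 with the intensity trend. Clk2, a kinase of SR proteins, came close, with 908 and 693 against 1758 and 1336 and log2 ratios of -0.95 and -0.95 (adjusted p = 0.0803). Its relative Clk1 had log2 ratios of 0.11 and 0.18, with signals that overlapped between the groups.

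The SR proteins themselves went different ways. Srsf5 (SRp40) had signals of 11548 and 14220 with LIF-siRNA against 8165 and 7877 with scrambled siRNA, higher on both arrays without overlap. Its log2 ratio was 0.68 ± 0.25 (SD, n = 2; limma adjusted p = 0.125, and 0.0252 with the intensity trend). Srsf3 (SRp20) had log2 ratios of 0.24 and 0.16 and Srsf2 (SC-35) of -0.29 and -0.10, with limma adjusted p of 0.543 and 0.567. Of the 6 splicing factors and kinases, 3 were higher and 3 lower on both arrays, and the 2 past 1.5-fold on both were Sf3a2 and Clk2, both lower. No splicing factor 3b subunit and no LSM, DEAH or exosome name was found among the members.

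The promoters of the members named first are shown so that the letters around their start sites can be read beside the ratios. RefSeq windows (GRCm38.p6) of 250 bases before to 50 after a start site were found for 48 of the 57 member genes with a symbol. Each line below holds the 250 bases before 1 start site, 5′ to 3′ on the strand of the gene, and capitals mark matches, on either strand, to CCAAT, to CCGGAA (the core of ETS factor motifs), to TATAAA or to TTCNNNGAA (the palindrome that STAT factors bind). Celf1 lies on the plus strand at chr2:90940147-90940396, Sf3a2 on the plus strand at chr10:80798485-80798734, Hnrnpa2b1 on the minus strand at chr6:51469846-51470095 and Ints6 on the minus strand at chr14:62761113-62761362.
Celf1: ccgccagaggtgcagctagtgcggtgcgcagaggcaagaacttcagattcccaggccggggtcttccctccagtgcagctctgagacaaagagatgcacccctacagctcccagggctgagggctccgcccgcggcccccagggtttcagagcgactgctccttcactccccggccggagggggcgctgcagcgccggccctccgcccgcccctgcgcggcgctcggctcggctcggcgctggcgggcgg
Sf3a2: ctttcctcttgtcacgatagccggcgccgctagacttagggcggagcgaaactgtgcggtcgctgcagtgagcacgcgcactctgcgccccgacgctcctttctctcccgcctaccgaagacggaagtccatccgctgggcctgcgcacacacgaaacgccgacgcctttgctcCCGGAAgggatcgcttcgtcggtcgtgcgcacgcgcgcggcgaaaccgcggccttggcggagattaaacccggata
Hnrnpa2b1: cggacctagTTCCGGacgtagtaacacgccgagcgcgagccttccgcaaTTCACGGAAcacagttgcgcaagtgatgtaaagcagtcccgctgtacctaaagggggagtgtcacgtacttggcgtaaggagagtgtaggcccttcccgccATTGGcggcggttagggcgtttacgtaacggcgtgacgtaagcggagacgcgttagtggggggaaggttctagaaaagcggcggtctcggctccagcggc
Ints6: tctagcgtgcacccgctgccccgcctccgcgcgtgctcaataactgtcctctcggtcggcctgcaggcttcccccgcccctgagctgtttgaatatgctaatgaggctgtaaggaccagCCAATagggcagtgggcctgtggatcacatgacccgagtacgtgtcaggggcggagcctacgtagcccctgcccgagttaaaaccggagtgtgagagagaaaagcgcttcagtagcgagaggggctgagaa

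Celf1 and Sf3a2, the genes with the lowest ratios past the criteria, had no TTCNNNGAA in these windows, and Hnrnpa2b1 had 1 match, written TTCACGGAA. Over all members TTCNNNGAA was found in 7 of 75 windows, from 6 genes (Adar, Cstf3, Hnrnpa2b1, Hnrnph1, Polr1b and Rnase1), or 9.33%, against 8.3% of all 32851 windows. Those 6 genes had ratios in both directions, from -0.95 for Adar to 1.10 for Rnase1 on the log2 scale. CCGGAA was found in 30.7% of the member windows and 14.9% of all, CCAAT in 48% and 37.4%, and TATAAA in 10.7% and 13.6%. A CCGGAA can lie inside a TTCNNNGAA. Some genes, such as Elavl2, have several overlapping windows, so a site can be counted more than once. By gene, CCGGAA was found in 19, CCAAT in 26 and TATAAA in 8 of 48. These shares describe letters in a window and were not tested.

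Among the hnRNPs, which coat nascent transcripts, Hnrnpa2b1 stood highest. Hnrnpa2b1 takes part in alternative splicing, in the reading of methylated adenosine in RNA and in RNA transport. It had signals of 11470 and 13321 with LIF-siRNA against 5949 and 6775 with scrambled siRNA. Both LIF-siRNA values were far above both scrambled-siRNA values. The log2 ratio was 0.96 ± 0.02 (SD, n = 2), a ratio of 1.95 that stopped short of 2-fold, with a limma adjusted p of 0.0791 and of 0.00755 with the intensity trend. Hnrnpc, Hnrnpd and Hnrnpdl had smaller ratios, with mean log2 values of -0.24, 0.04 and 0.25, and adjusted p of 0.479, 0.921 and 0.455. Over the 9 hnRNP spots, from 6 names, 4 were higher on both arrays, 4 lower and 1 mixed, with a median log2 ratio of 0.04.

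Spots of the same hnRNP gene gave opposite ratios. Hnrnpa1, which represses splice sites and shuttles with mRNA to the cytoplasm, had 3 spots. The first had 4361 and 3935 with LIF-siRNA against 3070 and 2167 with scrambled siRNA, a log2 ratio of 0.68 ± 0.25. The second had 4531 and 4774 against 6489 and 7022, a log2 ratio of -0.54 ± 0.03, and the third 11906 and 11393 against 13949 and 13222, a log2 ratio of -0.22 ± 0.01 (SD, n = 2 each). LIF-siRNA was higher on the first spot and lower on the others, each time on both arrays and without overlap. The highest minus the lowest of the 3 log2 ratios was 1.02 on array 1 and 1.42 on array 2, larger than the SD of any of them. The limma adjusted p values were 0.123, 0.163 and 0.504.

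Hnrnph1, which binds G-rich stretches near splice sites, showed the same kind of split. One spot had 15030 and 17389 with LIF-siRNA against 11378 and 9559 with scrambled siRNA, a log2 ratio of 0.63 ± 0.33. The other, a dim spot, had 231 and 205 against 305 and 439, a log2 ratio of -0.75 ± 0.49. The first was higher and the second lower with LIF-siRNA on both arrays, a gap of 0.80 on array 1 and 1.96 on array 2. The files hold no clone sequences, so which part of a transcript, or which near-identical copy, each spot captures was not tested. Hnrnpa1 in particular has processed copies in the genome that a cDNA spot may also capture.

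**Figure D3:**
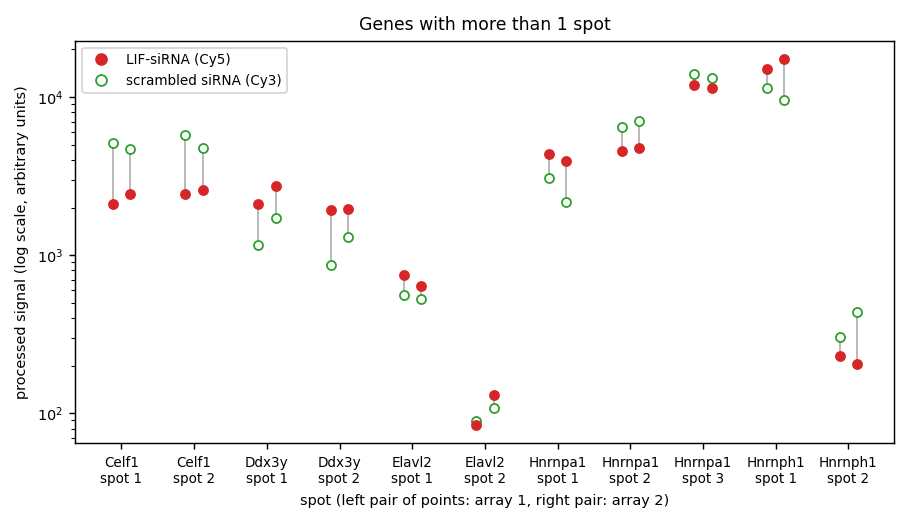
Processed signal on a log scale (y axis) of the 11 spots of the 5 genes with more than 1 spot (x axis), filled for LIF-siRNA and open for scrambled siRNA, with array 1 on the left and array 2 on the right of each pair. Celf1 and Ddx3y keep their direction on both spots, whereas Hnrnpa1 and Hnrnph1 do not.

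Celf1 and Ddx3y, in contrast, had the same direction on each spot. The Celf1 spots differed by 0.05 on the log2 scale on each array. Ddx3y, a DEAD-box helicase encoded on the Y chromosome, had 2095 and 2720 with LIF-siRNA against 1159 and 1725 with scrambled siRNA on its first spot. On the second it had 1920 and 1950 against 869.8 and 1304. LIF-siRNA was higher on both spots and arrays without overlap, with log2 ratios of 0.76 ± 0.14 and 0.86 ± 0.40 (SD, n = 2; limma adjusted p = 0.103 for both spots, and 0.0461 and 0.0487 with the intensity trend). The sex of the pooled embryos is not given. Xist, which is transcribed from the inactive X of female cells, had log2 ratios of -0.52 and -0.09 (limma adjusted p = 0.411). A share of male embryos that differed between the pools, and signal from the near-identical Ddx3x, were not tested. Elavl2 had log2 ratios of 0.41 and 0.26 on a brighter spot and of -0.08 and 0.27 on a dim one.

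The remaining helicases, which unwind RNA duplexes or remodel RNA-protein complexes, had small ratios except for 1. Ints6, named in the files as DEAD/H box polypeptide 26 and known as a subunit of the Integrator complex that cuts the 3′ ends of small nuclear RNAs, had 321 and 335 with LIF-siRNA against 154 and 152 with scrambled siRNA. The LIF-siRNA signals were about the same on both arrays and above both controls. Its log2 ratio was 1.10 ± 0.05 (SD, n = 2), a ratio of 2.14, but both signals were under the threshold of 1000. The limma adjusted p was 0.0688, the intensity trend gave 0.0468, and the mean was 0.75 when normexp background correction and loess (described with the dim members) replaced the processing of the files. Ddx5, a cofactor of splicing and transcription, had a mean of 0.25, Dhx9 (RNA helicase A) 0.05 and Ddx20, which works with the SMN complex, 0.03. The spot named DEAD/H box polypeptide 13 (RNA helicase A) had -0.35. None of these passed the limma test, which called 0 of all 8079 probes. Of the 7 helicase spots, 5 were higher on both arrays, 1 lower and 1 mixed, with a median of 0.25.

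The snRNP group had 10 spots and also held Smn1 and the U2AF relatives Zrsr1 and Zrsr2. Of the 10, 7 were higher with LIF-siRNA on both arrays, 2 lower and 1 mixed, with a median log2 ratio of 0.16. The limma test called 0 of the 10, and 0 of all 8079 probes. Over all 8079 probes, 2966 were higher on both arrays and 2970 lower. Median centring in place of lowess lowered the ratios of these bright spots by about the same amount, to 0.50 for Snrpd1, 0.23 for Snrpb2, 0.16 for Snrpe, 0.03 for Snrpb and 0.03 for Snrpa1. Snrpd1, part of the Sm ring that all spliceosomal snRNPs but U6 share, had 11304 and 12092 with LIF-siRNA against 8163 and 7218 with scrambled siRNA, a log2 ratio of 0.61 ± 0.19 (SD, n = 2; limma adjusted p = 0.143, and 0.0315 with the intensity trend). The Sm proteins Snrpe and Snrpb were nearer to 0, with means of 0.27 and 0.16, and so were the U2 proteins Snrpb2 (0.33) and Snrpa1 (0.16). Smn1, which loads the Sm ring onto small nuclear RNA, had log2 ratios of 0.00 and 0.31. Snrpa, the U1 A protein, lay on the other side, with 327 and 343 against 438 and 571, a dim spot with a log2 ratio of -0.58 ± 0.22 (adjusted p = 0.159).

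A pair of genes in the snRNP group are imprinted and expressed from the paternal copy, and they had opposite ratios. Snrpn, an Sm protein close to Snrpb, had 2511 and 2432 with LIF-siRNA against 3806 and 3673 with scrambled siRNA. Its log2 ratios of -0.60 and -0.59 were lower past 1.5-fold on both arrays without overlap (limma adjusted p = 0.136). Zrsr1, a relative of the small U2AF subunit that reads the 3′ splice site, had 961 and 1133 against 682 and 695, higher on both arrays, with a log2 ratio of 0.60 ± 0.15 (adjusted p = 0.141). Its X-linked relative Zrsr2 had log2 ratios of 0.26 and -0.07, and its groups overlapped. How Snrpn and Zrsr1 came to differ was not tested.

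Cold-responsive and other RNA-binding proteins also split. Cirbp, a cold-inducible protein that binds and stabilizes mRNA, was dim, with 235 and 218 with LIF-siRNA against 291 and 515 with scrambled siRNA. Its log2 ratios of -0.31 and -1.24 had the same sign but differed in size, so the mean of -0.77 carried an SD of 0.66 (adjusted p = 0.163). Rbm3, a cold-inducible relative of Cirbp, had 17447 and 19157 against 12148 and 11852, higher on both arrays without overlap, with a log2 ratio of 0.61 ± 0.12 (adjusted p = 0.136, and 0.0196 with the intensity trend). Rbmx, an X-linked hnRNP-like splicing regulator, had 1222 and 607 against 854 and 319. Each array put LIF-siRNA higher for Rbmx, a log2 ratio of 0.72 ± 0.29, yet the signals of the groups overlapped, and both channels were brighter on array 1 than on array 2. Its retrogene Rbmxl1, a near copy, had a mean log2 ratio of 0.15.

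The staufen proteins bind double-stranded RNA and take part in its transport and decay. Stau1 had 90.6 and 82.3 with LIF-siRNA against 171 and 199 with scrambled siRNA, lower on both arrays, with a log2 ratio of -1.09 ± 0.25 (adjusted p = 0.0738). Stau2 had 519.7 and 441 against 622 and 769, also lower on both arrays, with a log2 ratio of -0.53 ± 0.38 (adjusted p = 0.211). Adar, which edits adenosine to inosine in double-stranded RNA, had 67.4 and 84.8 against 108 and 198, a log2 ratio of -0.95 ± 0.39 (adjusted p = 0.0933). All 3 were lower with LIF-siRNA without overlap of the groups. Stau1 and Adar were dim, and with normexp and loess their means were -0.60 and -0.51.

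The ELAV proteins stabilize AU-rich mRNAs. None of those tested passed limma, which called 0 of all 8079 probes. Elavl1 (HuR), present in most cells, had log2 ratios of 0.09 and 0.22 and Elavl3, mainly neuronal, of 0.29 and -0.12. Znrd2, an autoantigen that the word Sjogren brought into this group and that is not counted among the known RNA-binding proteins, had a mean of -0.44. Rbm6 and Rbms1 had means of -0.28 and -0.22, and Rbms1 differed in sign between the arrays, with -0.59 and 0.15. Of the 15 RNA-binding spots tested, from 13 names, 5 were higher on both arrays, 7 lower and 3 mixed, with a median of -0.22.

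The 3′ end factors had small, mostly lower ratios. Cpsf3, the nuclease that cuts the pre-mRNA before polyadenylation, had 5507 and 4675 with LIF-siRNA against 6967 and 6723 with scrambled siRNA, a log2 ratio of -0.43 ± 0.13 (adjusted p = 0.238). Its partner Cpsf2 had log2 ratios of -0.20 and -0.32 and Cstf3 of the cleavage stimulation factor -0.21 and -0.30. Lower signals with LIF-siRNA on both arrays were thus found for 3 of the 4 spots, and 0 of them passed 1.5-fold on both. Pabpn1, which sets the length of the poly(A) tail in the nucleus, had 1378 and 2082 against 2134 and 1413. It was lower on array 1 and higher on array 2, with log2 ratios of -0.63 and 0.56.

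The ribonucleases lay on the higher side. Rnase1, the secreted pancreatic ribonuclease, had 73.2 and 78.6 with LIF-siRNA against 34.6 and 36.0 with scrambled siRNA. The groups did not overlap, and the log2 ratio of 1.10 ± 0.03 (SD, n = 2; limma adjusted p = 0.068) was the highest of the members. The scrambled-siRNA signal was above only 90.4% and 90.2% of the 664 blank spots on arrays 1 and 2, and the mean was 0.29 with normexp and loess. Rnaseh1, which cuts the RNA strand of RNA-DNA hybrids, had a log2 ratio of 0.41 ± 0.08 (adjusted p = 0.255).

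The nucleolus and the RNA polymerases supply ribosomal RNA and the pre-mRNA itself. Fbl (fibrillarin), the methyltransferase of box C/D small nucleolar ribonucleoproteins, had 6532 and 5788 with LIF-siRNA against 6954 and 6551 with scrambled siRNA, a log2 ratio of -0.13 ± 0.06 (adjusted p = 0.69), and a spot named nucleolar autoantigen had 0.46 ± 0.22. Polr1b, the second largest subunit of RNA polymerase I, was dim and had 186 and 193 against 288 and 372, a log2 ratio of -0.79 ± 0.22 (adjusted p = 0.102). The other polymerase I spots were nearer to 0, with -0.18 for Polr1a and 0.07 for Polr1c. Polr2a and Polr2d of RNA polymerase II had means of -0.04 and -0.00, with overlapping signals. Sub1, a coactivator of RNA polymerase II, had 13624 and 13948 against 9115 and 8707, higher on both arrays, with a log2 ratio of 0.63 ± 0.07 (adjusted p = 0.127, and 0.0207 with the intensity trend).

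The dead ringer homologs were lower on both arrays. Arid3a had 167 and 152 with LIF-siRNA against 394 and 597 with scrambled siRNA, a log2 ratio of -1.61 ± 0.52 (SD, n = 2; limma adjusted p = 0.0613), the lowest of the spots tested here, on a spot under the signal threshold. Arid3b had 755 and 843 against 995 and 1340, a log2 ratio of -0.53 ± 0.19 (adjusted p = 0.177). Without this pair the median log2 ratio of the members was 0.06, and 8 of the 62 left were lower past 1.5-fold on both arrays, against 9.63% of all probes.

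**Figure D4:**
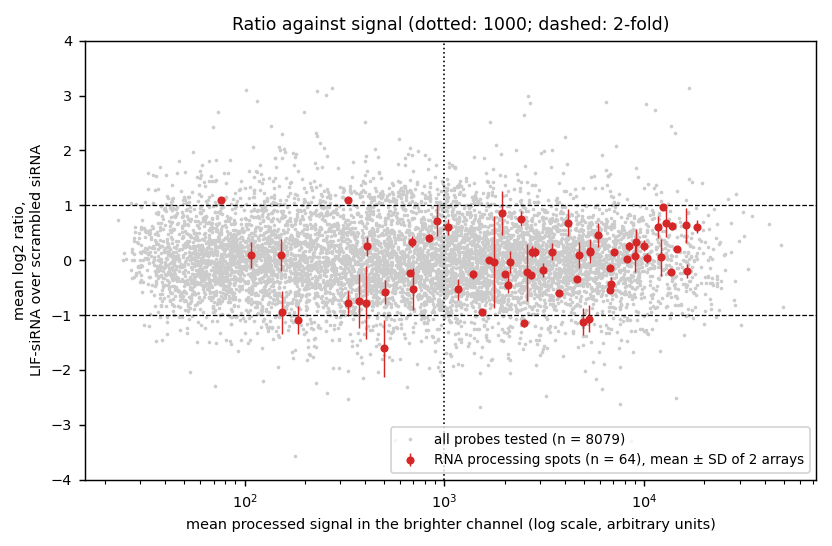
Mean log2 ratio (y axis, bars are the SD of 2 arrays) against the mean processed signal of the brighter channel on a log scale (x axis), red for the 64 member spots and grey for all probes tested. The dotted line is the signal threshold of 1000, to the right of which only Celf1 and Sf3a2 lie beyond a dashed 2-fold line among the members.

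The dim members had the larger ratios. The 47 members past the signal threshold had a median log2 ratio of 0.05, with 22 higher and 17 lower on both arrays. The 17 members below it had a median of -0.24 and a median absolute log2 ratio of 0.72, with 6 higher and 9 lower on both arrays. With normexp background correction (offset 50) followed by a new loess, which changes background and normalization together, 5 members instead of 9 were lower past 1.5-fold on both arrays, while the share of all probes went from 9.64% to 5.9%. The 5 were both Celf1 spots, Sf3a2, Clk2 and Arid3a. Under that setting Ddx3y (first spot), Hnrnpa2b1 and Ints6 were higher, against 5.52% of all probes, and Rnase1 was not.

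When limma's variance was allowed to follow intensity, 10 members were called higher (15.6%, against 7.22% of all probes) and 5 lower (7.81%, against 6.81%). The members were brighter than the average spot, and these shares were not taken among bright spots alone, so brightness was not matched. The lower ones were the Celf1 spots, Sf3a2, Clk2 and Arid3a. The higher ones were Hnrnpa2b1, both Ddx3y spots, Ints6, Srsf5, Rbm3, Sub1, Snrpd1 and the first spots of Hnrnpa1 and Hnrnph1. All of these spots had the same sign on both arrays, which a test of the mean favors, so it adds nothing to the calls. With all 8079 probes and no trend, 0 of them passed limma on the ratios as deposited. With median centring and no trend, limma called 8 members, beside 16.4% of all probes, namely both Celf1 spots, Sf3a2, Clk2, Arid3a and Stau1 lower and Ints6 and Rnase1 higher. When both channels had to be well above background, Arid3a alone was called, beside 3.09% of all probes.

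Other genes of RNA processing were taken from a list of names. Of 22 such spots, 16 had a gene name and 6 were ESTs, with a median log2 ratio of -0.21. The limma test called 0 of the 22, and 0 of all 8079 probes. Past 1.5-fold on both arrays, 0 were higher and 3 lower, beside 10.1% and 9.64% of all probes. The 3 were Nxf1 (nuclear RNA export factor 1), the main carrier of mRNA out of the nucleus, with log2 ratios of -1.05 and -1.25, the SR protein kinase Srpk1 with -0.80 and -0.60, and Tia1 (cytotoxic granule-associated RNA-binding protein 1), a splicing and stress granule factor, with -0.63 and -1.68. Srpk2, the other SR protein kinase, had -0.41 and -0.85. Fxr2, a relative of the fragile X protein, had 1.10 and 0.56. Nxf1 was the only 1 of the 22 past the criteria, with a limma adjusted p of 0.067.

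Markers of the cells in these pools were read from fixed lists of names. Of 5 pluripotency names, 4 were found, and their summed signal was 39370 and 39118 with LIF-siRNA against 36223 and 40446 with scrambled siRNA, which overlap. Most of that sum was Zfp42, a zinc finger gene of pluripotent cells, at 31231 and 28609 against 21414 and 25562, whereas Sox2 had 713 and 2034 against 5701 and 6572. Of 5 trophectoderm names 3 were found, with sums of 7625 and 8551 against 11423 and 18540, of which keratin 8 made up 1708 and 2131 against 5679 and 9530 and eomesodermin 2200 and 2712 against 1815 and 2720. The 3 of 5 cumulus and oviduct names found had sums of 978 and 1288 against 678 and 559. Of these 3, 2 were higher on both arrays, while tumor necrosis factor induced protein 6 had 86.0 and 114 against 133 and 97.4. The single egg marker of 5 found, bone morphogenetic protein 15, had 98.4 and 126 against 77.2 and 74.0. The 5 hemoglobin spots had sums of 1899 and 1762 against 4247 and 3745. Most of the hemoglobin sum was the hemoglobin X spot, at 1610 and 1421 against 3979 and 3439, and 1 of the other spots was higher with LIF-siRNA on both arrays. No marker found was listed at 0. Their part in the ratios of the splicing and processing factors was not tested.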

How the data were processed

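RNA of morulae given LIF-siRNA was compared with RNA of morulae given scrambled siRNA on 2 two-color cDNA arrays, a number that limits how precise any ratio can be. Scanner output of Agilent Feature Extraction was deposited. The deposited intensity columns are the processed signals of both channels, which the authors' software background-subtracted and dye-normalized, and the raw intensities of each spot and its local background, which served for normexp. The deposited log10 ratio is Cy5 (LIF-siRNA) over Cy3 (scrambled siRNA) after rank-consistent lowess. The deposited series table of log2 values followed the average brightness of an array (r = 0.998 on array 1) and not the ratio (r = 0.0121), so it gave no alternative.

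The ratio was converted to log2, without control spots and without the 23 gene spots that carried an outlier mark. Of the 65 members, 0 carried a mark. The test took spots that the software marked as well above background in 1 or both channels on each array, which 64 members were. Genes were compared by the thresholds of the methods on means over both arrays (a ratio of 2 or 0.5 and a signal of 1000), by 1.5-fold on both arrays, and by limma 3.58.1 (eBayes on a two-sided fit with an intercept, adjusted by Benjamini-Hochberg over 8079 probes) in R 4.3.3, checked on simulated data. Python 3.11.15 and pandas 2.3.3 were used for the counts.

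The members, role groups and lists were chosen with earlier results of these data known. Named are the members past the criteria, the 10 highest and 10 lowest mean log2 ratios of the same sign on both arrays, every gene with more than 1 spot, and, whatever their values, the core snRNP, hnRNP, SR, fibrillarin, survival motor neuron, cold inducible, poly(A), staufen, CDC-like kinase, ELAV and CUG proteins. Other members named were chosen after their values were seen. Symbols were matched by hand from full names for 57 of 59 names, and 57 were found in RefSeq.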

Additional observations from a re-analysis of the deposited data

How the results depend on the processing

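Each setting was changed alone, except that normexp (offset 50) came with loess, so background and normalization changed together. Without the signal threshold, 2 members were higher and 6 lower by the criteria, against 0 and 3, beside 6.55% and 5.13% of all spots, and on 1 array at a time 0 to 1 were higher, beside 2.98% and 2.02% of all spots, and 1 to 3 lower, beside 3.05% and 2.47%, in each case the first without array 1. At 1.5-fold, normexp with loess left 5 members lower instead of 9, beside 5.9% of all probes instead of 9.64%. A single array gave 6 to 12 members higher, beside 17.3% and 19.6% of all probes, and 11 to 14 lower, beside 17% and 20%, since 1 array is an easier condition than both. With limma, 8 members were called with median centring in place of lowess, 1 when both channels had to be well above background and 15 with the intensity trend, against 0, and 0 with normexp and loess, by an unmoderated one-sample test, with outliers kept and with no filter on dim probes. Over all probes these settings called 1324, 234 and 1133, and normexp 158. The median log2 ratio of the members was -0.0692 with median centring and -0.0596 without array 2 to 0.0767 without array 1, so its sign is not settled. Median centring changed the sign of 5 of 64 members, with means no larger than 0.092, and normexp that of 1. Of the calls past 1.5-fold, 30.8% of members and 51.2% of all probes were higher, with 37.5% and 48.3% under normexp and 25% and 52.7% with median centring. Keeping outliers, the signal threshold in both channels, no filter on dim probes and leaving out the dead ringer homologs, which was added after seeing the data, moved no count of members past the criteria or past 1.5-fold by over 1.5 times. The median log2 ratio was 0.03 with spots of a name averaged. The test of a log ratio against 0 is itself paired within the array. No paired analysis was possible beyond it, because each log ratio already holds both groups, and for the same reason no block for the slide could be fitted.

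Dim spots limit Rnase1 and Elavl4, which have a channel among the signals of the blank spots. The signals of Adar, Stau1 and Ints6 were above 97.3% or more of the blank spots. No dye swap was made, so a dye effect of a spot repeats on both arrays and cannot be told apart from the treatment, and a small SD does not bear on it.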
